A study of Glycine max with 12 samples.

Results

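Early light-induced proteins, ELIPs, are described here by the 2 soybean gene models that carry the name ELIP1, Glyma10g38910 and Glyma20g28890, out of 30498 entries deposited by the authors. They were picked by that name, and with their values in these libraries already known, so all that follows on these genes is a description, with no test made here. The deposited annotation pairs both with the Arabidopsis locus AT3G22840 and describes both as members of the chlorophyll a/b binding family.

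ELIPs sit in the thylakoid membrane of the chloroplast and belong to the same large family as the antenna proteins, the light-harvesting complex proteins that hold chlorophyll and pass its captured energy to the photosystems. In Arabidopsis and pea their messenger RNA rises when leaves meet strong light, blue light, UV-B or cold, and also rises as etiolated seedlings green. They are thought to bind free chlorophyll or to help dissipate light energy, a photoprotective role, whereas antenna proteins serve light capture.

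Each of 12 RNA-seq libraries came from 1 field plot near Brookings and pooled at least 8 soybean plants of the cultivar AG1631 at the V3 stage, of which the youngest unfolded trifoliate, smaller than 2 cm, was taken. The study set 6 libraries of weedy plots against 6 of control plots kept free of weeds by herbicide, with 1 plot per treatment in 2008 and in 2009 and 2 in 2010 and in 2011. In 2008 the weeds were velvetleaf with buckwheat at a density near 300 per square metre, and in 2009 the same species near 48. In 2010 they were flax near 600, and in 2011 velvetleaf with common sunflower near 160. The herbicide of the control plots was S-metolachlor in the first season, sethoxydim in the second and glyphosate in the third, and in 2011 it was glyphosate together with S-metolachlor, sethoxydim and imazethapyr, so that herbicide and absence of weeds cannot be told apart. For the 2009 control plot the labels give spraying on June 26 and sampling on June 25. By these dates that spraying came after the sampling, so the statements on herbicide above may not hold for 2009. The rows stood 76 cm apart for replicate 1 and 18 cm apart for replicate 2, and plots of the same season and number are called a pair below. For the weedy replicate 2 of 2011 the label reports a corrupt second read file, without saying how the library was handled. For the main results that move with it, values are given also without both libraries of its pair.

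Levels are log2 FPKM, the log2 of fragments per length of transcript and per sequenced reads. Sorted values were identical in the 12 libraries, with a lowest of 0, a median of 3.22 and a highest of 13.50. A level is therefore fixed by a gene's rank in its library, and a difference of 1 is a 2-fold difference on that scale. No read counts are given, so the depth behind a value is unknown. In RNA from whole leaves, fewer cells of a type and less RNA per cell cannot be told apart. The 2 ELIP1 genes carry 1 name and may share reads, so how the signal divides between them is uncertain.

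Both ELIP1 genes were among the most abundant messenger RNAs of the young leaf. In control plots Glyma20g28890 stood at 11.23 in 2008, 10.82 in 2009, 11.23 and 11.37 in replicates 1 and 2 of 2010, and 11.77 in both replicates of 2011. Its rank in those control libraries lay between 5 and 14 of 30498 entries. In control plots Glyma10g38910 stood at 10.28 in 2008, 9.58 in 2009, 10.16 and 10.04 in 2010, and 10.55 and 10.51 in 2011, at ranks between 19 and 59. Every control library thus held both genes far above the median level of 3.22.

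In weedy plots the ELIP1 levels were lower in most pairs. In weedy plots Glyma10g38910 stood at 10.22 in 2008, 9.20 in 2009, 8.97 and 8.96 in replicates 1 and 2 of 2010, and 10.12 and 10.04 in 2011. Its rank ran from 27 in 2008 to 141 in replicate 2 of 2010. Glyma20g28890 stood in weedy plots at 11.01 in 2008, 10.32 in 2009, 10.44 and 10.26 in 2010, and 11.23 and 11.77 in 2011. Its lowest rank was 26, in replicate 2 of 2010, and its highest was 5, in replicate 2 of 2011, where the control plot had the same rank and the same value.

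**Figure D1:**
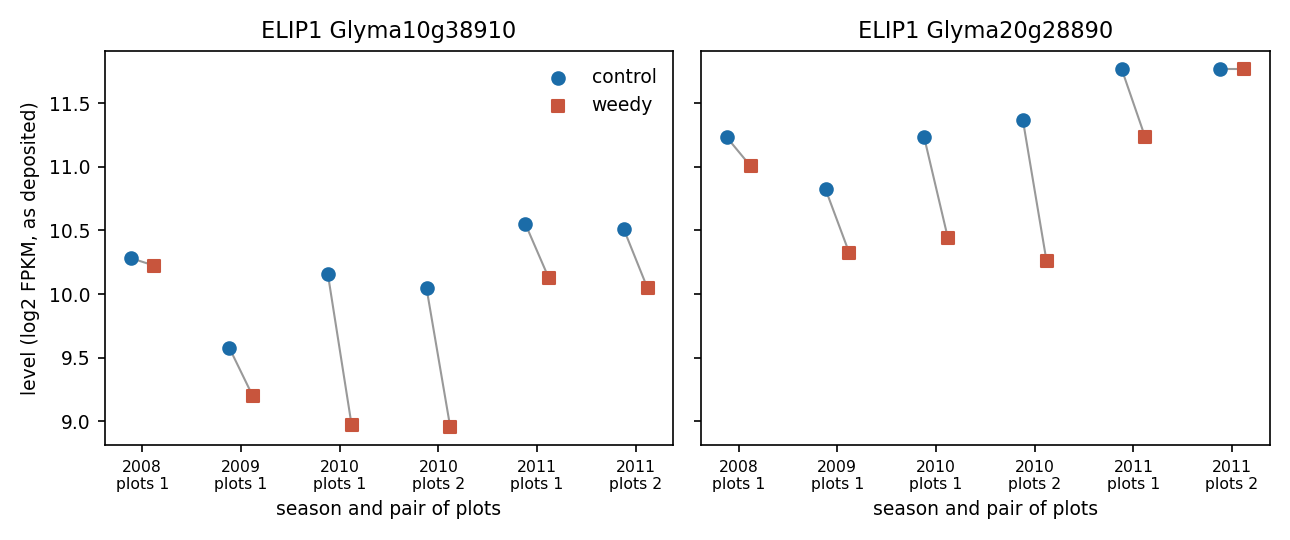
Level of the 2 ELIP1 genes (log2 FPKM as deposited, y axis) in each library by season and pair of plots (x axis), with control plots as circles and weedy plots as squares and a line joining the plots of a pair. Weedy lies below control in 6 of 6 pairs for Glyma10g38910 and in 5 of 6 for Glyma20g28890, with equal values in replicate 2 of 2011, and the steepest lines are those of 2010.

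Pair by pair, Glyma10g38910 was lower in weedy plots in 6 of 6 pairs. The log2 differences, weedy minus control, were -0.06 in 2008 and -0.38 in 2009, -1.18 and -1.09 in replicates 1 and 2 of 2010, and -0.43 and -0.46 in 2011. On the linear scale, the weedy plots held 96.0% and 76.7% of the control level in 2008 and 2009, 44.1% and 47.0% in 2010, and 74.2% and 72.6% in 2011. The plots of 2008 were nearly level, and the plots of 2010 lay furthest apart. Over the whole table, 2.80% of the 30456 genes tested were lower in weedy plots in all 6 pairs.

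Glyma20g28890 was lower in weedy plots in 5 of 6 pairs and equal in the sixth. The log2 differences were -0.22 in 2008, -0.50 in 2009, -0.79 and -1.11 in 2010, and -0.54 and 0.00 in 2011, or 85.6%, 70.8%, 57.9%, 46.4%, 68.8% and 100% of the control level. A gene lower in at least 5 pairs and higher in none was found for 2.83% of genes tested. The equal pair is the one with the corrupt read file. At these ranks the scale has few steps: rank 5 stands for 11.77 in every library and rank 9 for 11.23, so a move of 4 places spans 0.54.

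With the season in a limma fit over all 12 libraries, the weedy minus control difference was -0.60 ± 0.15 (SE, n = 6 libraries per group) for Glyma10g38910, from a control mean of 10.19 ± 0.36 (SD) to a weedy mean of 9.59 ± 0.60. The fitted weedy level was 65.9% of control. For Glyma20g28890 the difference was -0.53 ± 0.15, from 11.37 ± 0.36 to 10.84 ± 0.60, or 69.4% of control. Ordered from the lowest difference upward over the 30456 genes tested, the 2 genes stood at places 200 and 289. Without the 2 libraries of 2011 replicate 2 the differences were -0.63 for both genes. Without the season 2010 they were -0.33 and -0.32, so the 4 libraries of 2010 carry much of the size of both estimates.

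The study's season 2010, with flax, gave the widest gap. The mean of the 2 plots of Glyma10g38910 was 10.10 ± 0.08 (SD) in control and 8.97 ± 0.01 in weedy plots, a difference of -1.14 ± 0.13 (SE) in the fit of the 8 libraries of 2010 and 2011. For Glyma20g28890 the means were 11.30 ± 0.10 and 10.35 ± 0.13, a difference of -0.95 ± 0.21. The weedy levels were 45.5% and 51.8% of control. Both weedy plots lay below both control plots for each gene in 2010, which was also so for 17.9% of genes tested.

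In 2011, with velvetleaf and sunflower, the gaps were smaller. Glyma10g38910 averaged 10.53 ± 0.03 (SD) in control and 10.08 ± 0.06 in weedy plots, a difference of -0.45 ± 0.13 (SE), and the plots did not overlap, as for 27.0% of genes tested. Glyma20g28890 stood at 11.77 in both control plots and at 11.23 and 11.77 in the weedy ones, a difference of -0.27 ± 0.21 with groups that touch, and of -0.54 where the pair with the corrupt file is left out. The 2011 difference minus the 2010 difference was 0.69 ± 0.19 for Glyma10g38910 and 0.68 ± 0.29 for Glyma20g28890. Without the pair of the corrupt file it was 0.71 ± 0.28 and 0.41 ± 0.30. Since the genes were chosen with these values known, these contrasts describe the libraries only.

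The authors' deposited table holds Cuffdiff results for 2010 and 2011, and how the library with the corrupt read file entered those of 2011 is not stated. For Glyma10g38910 in 2010 the authors' deposited table gives a p-value of 0.000825 and a q-value of 0.0377, and for 2011 a q-value of 0.870. For Glyma20g28890 the authors' deposited table gives q-values of 0.253 in 2010 and 0.977 in 2011. Among all entries of the authors' deposited table, 2.46% have a q-value under 0.05 in 2010 and 7.67% in 2011. The authors' deposited table marks 104 genes as moving alike in several seasons, and 0 of the 2 ELIP1 genes is among them.

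The 2 ELIP1 genes varied together from library to library, with Glyma20g28890 the higher in all 12. The log2 FPKM level of Glyma20g28890 minus that of Glyma10g38910 ran from 0.78 to 1.72 with a median of 1.23, which is a ratio of 1.72 to 3.31 with a median of 2.35. The smallest gap was in the weedy plot of 2008, and the widest was in the weedy replicate 2 of 2011, the library with the corrupt read file. Across the 12 libraries the Pearson correlation of the 2 genes was 0.91 (Spearman 0.75), and 0.89 (0.83) after the season means were removed. Over the 10 libraries without the pair of the corrupt file the Pearson values were 0.95 and 0.96. The 2 genes share every library and may share reads, so these are descriptions.

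Seasons differed in ELIP1 level as well. Over both treatments Glyma10g38910 averaged 10.25 in 2008, 9.39 in 2009, 9.53 in 2010 and 10.31 in 2011, and Glyma20g28890 averaged 11.12, 10.57, 10.82 and 11.63. In control plots alone, the lowest season was 2009 for both genes, at 9.58 and 10.82, and the highest was 2011, at 10.53 and 11.77. The labels give cumulative precipitation of 9.9 cm and a temperature of 27.2 °C at the 2009 sampling. The values were 12.4 cm and 23.9 °C in 2008, 19.4 cm and 25.6 °C in 2010, and 24.2 cm and 26.1 °C in 2011. The sampling date differed as well: leaves were taken latest in 2011, on June 29, and from June 22 to 25 in the other seasons. Weather, sampling date and season cannot be told apart here, and a part of any of them in the ELIP1 levels was not tested. The order of the control seasons was 2011, 2008, 2010, 2009 for Glyma10g38910 and 2011, 2010, 2008, 2009 for Glyma20g28890. The middle seasons were neighbours, with 10.28 in 2008 against 10.10 ± 0.08 (SD, n = 2) in 2010 for the first gene and 11.23 against 11.30 ± 0.10 for the second, and with 1 plot in 2008 their order has no replicate check.

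Differences with row spacing were no larger than their errors. The 18 cm plot minus the 76 cm plot of the same group was -0.11, -0.02, -0.05 and -0.08 for Glyma10g38910 in control 2010, weedy 2010, control 2011 and weedy 2011, a fitted -0.06 ± 0.10 (SE, 8 libraries). For Glyma20g28890 it was 0.14, -0.18, 0 and 0.54, a fitted 0.12 ± 0.14, where the 0.54 comes from the weedy plots of 2011 and the fitted value without that pair was -0.02. Spacing and replicate number are the same thing in the labels.

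The light-harvesting antenna genes lay mostly on the other side of 0. Of 38 antenna genes measured, 37 had a weedy minus control difference above 0 and 1 below, with a median of 0.22 and a range from -0.02 to 0.85 on the log2 scale. Among all genes tested 47.9% were above 0 and the median was -0.01. In limma 0 of the 38 passed an adjusted p of 0.05 in either direction, as did 0 of 30456 genes (0% called). At an unadjusted p under 0.05 there were 3293 genes, of them 6 antenna genes, all 6 higher in weedy plots. The fit assumes a common difference for all seasons, so a change of the antenna difference between seasons widens its SE and raises its p-values. Without the pair of the corrupt file the median of the antenna list was 0.11, with 35 genes above 0 and 3 below, and without the season 2010 the median was 0.47.

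**Figure D2:**
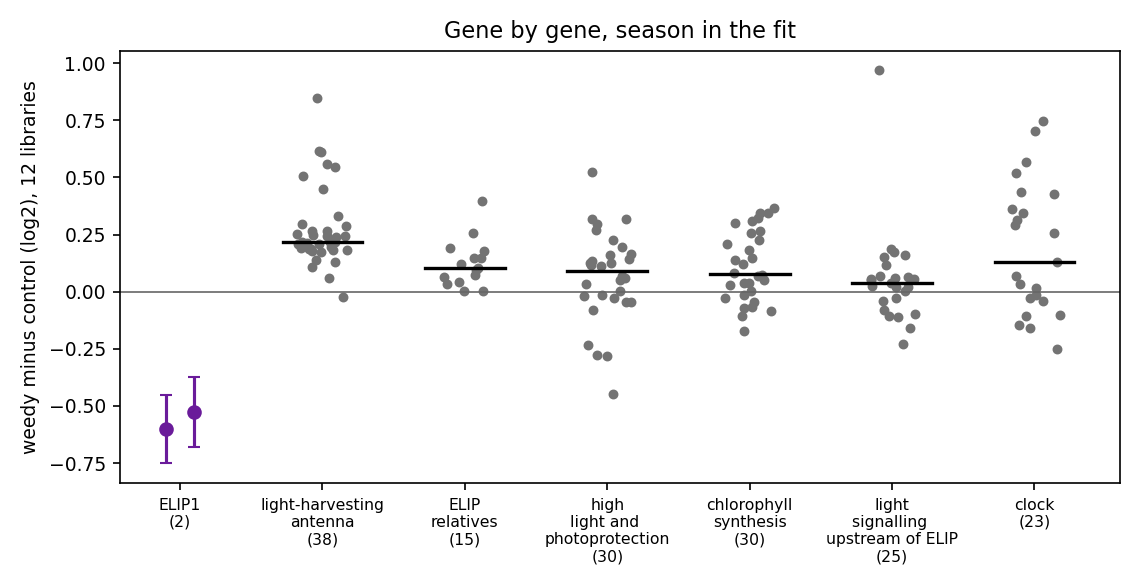
Weedy minus control (log2, y axis) fitted over 12 libraries for each gene (points) of ELIP1 and of each list (x axis, number of genes in brackets), with the list median as a bar and, for ELIP1 only, the SE as an error bar. The 2 ELIP1 genes lie at -0.60 and -0.53, below each of the 38 antenna genes and 15 ELIP relatives, which run from -0.02 upward.

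LHB1B1 Glyma16g27990, a major trimer protein of photosystem II, had the highest difference of the antenna list at 0.85 ± 0.27 (SE, limma adjusted p = 0.305), which was 0.62 ± 0.24 without the pair of the corrupt file. Its control levels were 8.08 in 2008, 6.87 in 2009, 7.08 and 7.27 in 2010, and 6.66 and 5.68 in 2011, and its weedy levels were 8.63, 8.54, 6.96, 7.34, 7.62 and 7.64 in the same order. The weedy plot was the higher in 5 of 6 pairs, and the pairs of 2010 were nearly level. The 3 genes of that locus ran from 0.56 to 0.85.

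LHCB4.3 Glyma11g35130, a minor antenna protein next to the photosystem II core, had the smallest p of the list, with a difference of 0.54 ± 0.16 and a limma adjusted p of 0.265. It was higher in weedy plots in 5 of 6 pairs, with pair differences from -0.27 to 1.21. Without the pair of the corrupt file its difference was 0.41 ± 0.16. CAB1 Glyma08g08770, another trimer protein and among the most abundant messages of the leaf, had the lowest difference at -0.02 ± 0.31 (adjusted p = 0.988, limma), and -0.22 ± 0.27 without the pair of the corrupt file. CAB1 Glyma08g08770 was lower in weedy plots by 0.27 and 0.32 in 2008 and 2009 and by 0.56 and 0.78 in 2010, but higher by 0.85 and 0.95 in 2011. The photosystem I antenna genes had medians of 0.16 for LHCA1, 0.22 for LHCA2, 0.21 for LHCA3, 0.16 for LHCA4, 0.18 for LHCA5 and 0.19 for LHCA6. Among photosystem II genes the medians were 0.61 for LHCB1.2 (1 gene), 0.22 for LHCB1.3, 0.61 for LHCB1.4, 0.36 for LHCB2.1 and 0.25 for LHCB3. They were 0.20 for LHCB4.2, 0.44 for LHCB4.3, 0.24 for LHCB5, 0.20 for LHCB6 and 0.11 for LHCB7 (1 gene).

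By pair, the antenna median difference was lowest in 2010, as were the differences of ELIP1, and the ELIP1 mean lay below the antenna median throughout. The antenna median, weedy minus control, was 0.14 in 2008, 0.64 in 2009, -0.19 and -0.25 in replicates 1 and 2 of 2010, and 0.28 and 0.89 in 2011. Of the 38 genes, 32, 36, 1, 5, 37 and 38 were above 0 in those pairs. The mean of the 2 ELIP1 genes minus the antenna median was -0.28 in 2008, -1.08 in 2009, -0.79 and -0.84 in 2010, and -0.77 and -1.12 in 2011. The ELIP1 difference was thus below the antenna median in 6 of 6 pairs, by least in 2008. Single antenna genes could lie lower, as CAB1 Glyma08g08770 at -0.27 in 2008, against -0.06 and -0.22 for Glyma10g38910 and Glyma20g28890. LHCA6 Glyma09g08260, named after its value was seen, differed by -1.01 in 2010, against -1.14 and -0.95 for the 2 ELIP1 genes.

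**Figure D3:**
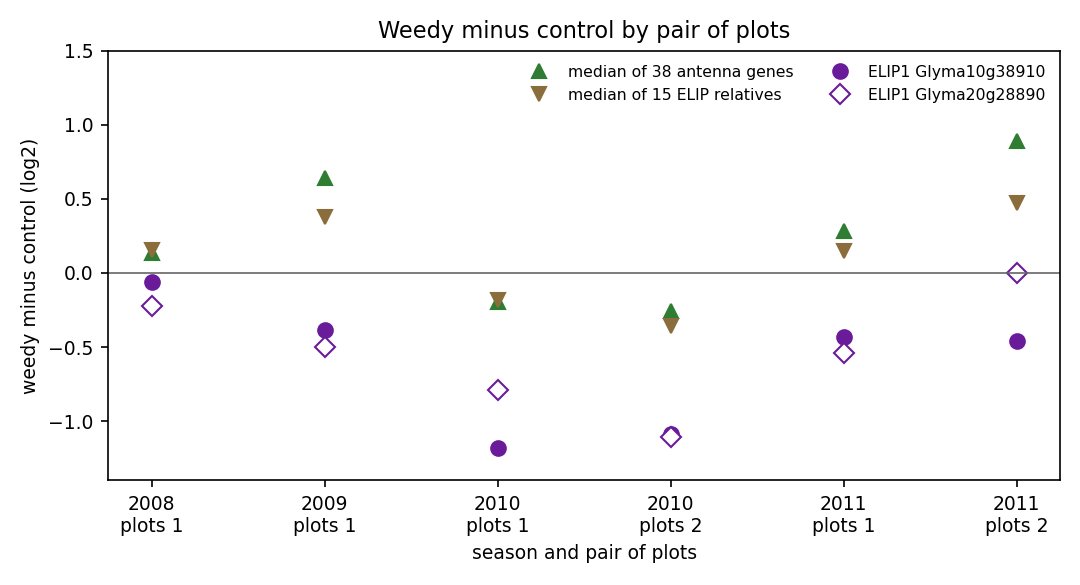
Weedy minus control (log2, y axis) in each pair of plots (x axis) for the 2 ELIP1 genes and for the medians of 38 antenna genes and 15 ELIP relatives. Both medians are above 0 in 2008, 2009 and 2011 and below 0 in 2010, and both ELIP1 genes lie below the antenna median in every pair.

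In the fit of the 8 libraries 0 antenna genes passed limma in 2010, in 2011 or in the difference of the seasons (0% of genes called in each, with 2632, 3655 and 4181 genes at an unadjusted p under 0.05 in 2010, in 2011 and for the difference). The list medians were -0.24 in 2010 and 0.57 in 2011, beside 0.01 and -0.02 over all genes tested, and replicate 1 alone gave 0.28 in 2011. Several other lists had the same pair of signs. Medians were -0.22 and 0.31 for ELIP relatives and -0.38 and 0.35 for high light and photoprotection. They were -0.29 and 0.33 for chlorophyll synthesis, -0.49 and 0.44 for mesophyll markers and -0.10 and 0.10 for light signalling. Vascular wall markers had the reverse signs, at 0.08 and -0.73. The clock list stood at 0.09 and 0.08 and the meristem gene at -0.24 and -0.58. By Cuffdiff, a test other than limma, 1 of the 38 antenna genes has a q-value under 0.05 for 2010 in the authors' deposited table, and 13 have one for 2011, against the 2.46% and 7.67% of all entries given above. How the library with the corrupt read file entered the 2011 values is not stated, and no Cuffdiff value without it is at hand. Relative to the antenna, that is with each library centred on its antenna median, the ELIP1 differences of the seasons came close to each other, at -0.91 and -0.72 in 2010 and -0.98 and -0.80 in 2011 for Glyma10g38910 and Glyma20g28890. For row spacing, too, 0% of genes were called, with 2404 at an unadjusted p under 0.05 in limma.

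In level, ELIP1 lay above the antenna median in each of the 12 libraries. The mean of the 2 ELIP1 genes minus the antenna median (log2 FPKM) was 2.02 in the control and 1.74 in the weedy plot of 2008, and 2.34 and 1.32 in 2009. In 2010 it was 2.87 and 2.17 in replicate 1 and 2.73 and 1.79 in replicate 2, and in 2011 it was 2.68 and 2.02 in replicate 1 and 3.11 and 1.99 in replicate 2. The control plot had the larger gap in each pair. Across the 12 libraries, the ELIP1 mean and the antenna median had a Pearson correlation of 0.47 (Spearman 0.53), which was -0.07 (-0.10) once season means were removed. Over the 6 pair differences it was 0.75 (0.66). Without the pair of the corrupt file the 3 Pearson values were 0.53, 0.07 and 0.71. The points share libraries, scale and seasons.

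**Figure D4:**
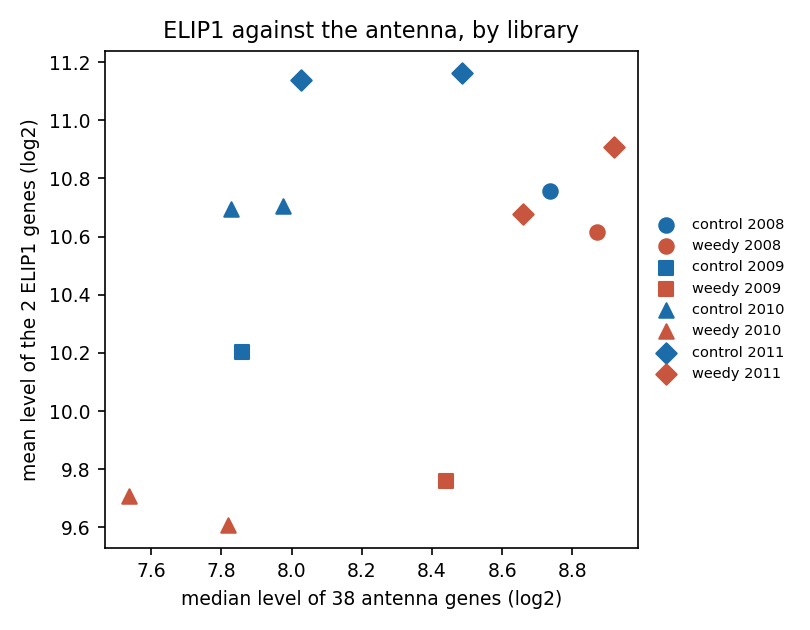
Mean level of the 2 ELIP1 genes (log2 FPKM, y axis) against the median level of 38 antenna genes (log2 FPKM, x axis) in each of 12 libraries, with colour for treatment and shape for season. Within each season the weedy points lie below the control points on the y axis, while on the x axis they lie to the right in 2008, 2009 and 2011 and to the left in 2010.

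The antenna differed between seasons. The limma F test over the seasons called 32 of 38 antenna genes and 14 of 15 ELIP relatives, against 67.1% of all genes tested. Antenna medians in control plots were 8.74 in 2008, 7.86 in 2009, 7.91 in 2010 and 8.28 in 2011. For the antenna the control plots of 2009 and 2010 were not separated, since the single value of 2009 lay between the 7.83 and 7.98 of the plots of 2010. The highest control season was 2011 for ELIP1 and, on 1 plot, 2008 for the antenna.

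ELIP relatives, the other small proteins of the extended antenna family, were 15 genes beside ELIP1. All 15 had a difference above 0, with a median of 0.10 and a range from 0.00 to 0.40, and 0 were called in limma. Without the pair of the corrupt file 12 lay above 0 and 3 below, with a median of 0.07. Their pair medians were 0.15 in 2008, 0.38 in 2009, -0.18 and -0.36 in 2010, and 0.15 and 0.48 in 2011, the same signs as the antenna.

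Among the relatives, the 2 genes named NPQ4 encode PsbS, the sensor of thylakoid acidity that switches on energy dissipation in photosystem II. NPQ4 Glyma06g11890 differed by 0.00 ± 0.15, with 9.65 ± 0.29 (SD) in control plots and 9.65 ± 0.49 in weedy ones, and NPQ4 Glyma04g42870 by 0.04 ± 0.15, from 9.40 ± 0.32 to 9.44 ± 0.46. Both were lower in weedy plots in the 2 pairs of 2010, by 0.36 to 0.52, and higher in the other 4. The adjusted p-values were 0.997 and 0.947 in limma.

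One-helix proteins, which assist the assembly of photosystem reaction centres in Arabidopsis, came to 6 genes. OHP Glyma07g16250 and Glyma18g40280 differed by 0.18 ± 0.13 and 0.03 ± 0.08. OHP2 Glyma02g08740, Glyma16g27850, Glyma10g36650 and Glyma20g30940 differed by 0.40 ± 0.23, 0.26 ± 0.17, 0.10 ± 0.08 and 0.06 ± 0.12. The lowest adjusted p of these, and of the 15 relatives, was 0.578, of OHP2 Glyma02g08740.

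LIL3:1, a light-harvesting-like protein needed for chlorophyll and tocopherol synthesis in Arabidopsis, was held by Glyma17g15730 and Glyma05g05450, at 0.15 ± 0.11 and 0.12 ± 0.09. The stress-enhanced proteins, which carry 2 membrane helices, gave 0.09 ± 0.19 for Glyma20g26560, 0.19 ± 0.17 for Glyma20g26370 and 0.15 ± 0.13 for Glyma10g40930 (stress enhanced protein 1), and 0.00 ± 0.14 for Glyma05g31710 and 0.07 ± 0.13 for Glyma08g14960 (stress enhanced protein 2). The 15 relatives, at 0.00 or more, thus all lay above both ELIP1 genes in this fit.

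Light signalling genes, listed by their Arabidopsis loci, were 25, and not each is a known regulator of ELIP1. They are light receptors, factors between them and light-responsive genes, and 3 genes of the chloroplast sigma factor SIG5. Of these 17 had a difference above 0 and 8 below, with a median of 0.04, and 0 were called. Without the pair of the corrupt file 12 lay above 0 and 13 below, with a median of -0.0038. HY5, a bZIP transcription factor needed in Arabidopsis for light and UV-B induction of ELIP1, was held by 2 genes that were lower in weedy plots in all 6 pairs. HY5 Glyma18g14750 stood in control plots at 4.26 in 2008, 4.45 in 2009, 4.83 and 4.55 in 2010, and 4.53 and 4.43 in 2011. Its weedy levels were 4.08, 4.33, 4.09, 4.36, 4.46 and 4.35 in the same order. The widest gap was in replicate 1 of 2010, at -0.74, and the others lay between -0.19 and -0.06.

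The fitted difference of HY5 Glyma18g14750 was -0.23 ± 0.09 (limma adjusted p = 0.395), and that of HY5 Glyma08g41450, named after its values were seen, was -0.16 ± 0.06 (adjusted p = 0.408). The pair differences of HY5 Glyma08g41450 ran from -0.39 in replicate 1 of 2010 to -0.0044 in 2009. Their correlations with the ELIP1 mean, season means removed, were 0.78 and 0.76 over 12 libraries. Over the 25 genes of the list the correlations ran from -0.67 to 0.78 with a median of 0.17. Treatment was not removed, so genes lower in weedy plots tend to correlate with ELIP1 through that alone. A part of HY5 in the ELIP1 values was not tested. HYH, a close relative of HY5, had 2 genes, both below 0, with differences of -0.11 and -0.08.

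COP1, the ubiquitin ligase that removes HY5 in the dark, had 2 genes at 0.00 and 0.19, and the 2 genes of its partner SPA1 lay at 0.02 and 0.07. The blue light receptor genes were 4 of CRY1, all above 0 with a median of 0.06, and 3 of CRY2, from -0.11 to 0.12. PHYB, the red light receptor, had 2 genes at -0.10 and -0.03, and PHYA, the far-red receptor, 2 genes at 0.02 and 0.04. SIG5, a sigma factor of the chloroplast, had 3 genes from 0.06 to 0.18. Of 3 genes of the UV-B receptor UVR8, the 1 that stands out in the plot by list, Glyma05g32790, named after its value was seen, differed by 0.97 ± 0.52 at a mean level of 1.33 and was higher in weedy plots in 3 of 6 pairs.

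Other genes of high light and photoprotection were 30, of which 20 lay above 0 and 10 below, with a median of 0.09 and 0 called, and 16 above and 14 below with a median of 0.01 without the pair of the corrupt file. The 2 genes of APX1, cytosolic ascorbate peroxidase, which removes hydrogen peroxide, were named after their values were seen. APX1 Glyma12g07780 differed by -0.28 ± 0.10 (adjusted p = 0.363, limma) and was lower in weedy plots in 6 of 6 pairs, from -0.65 to -0.07. APX1 Glyma11g15680 differed by -0.28 ± 0.11 and was lower in 5 of 6. Of 11 genes for chalcone synthase, the entry enzyme of flavonoid synthesis, 6 lay below 0, and TT4 Glyma01g43880 had the smallest p of the list at -0.45 ± 0.16 (adjusted p = 0.347). All 6 phytoene synthase genes, for the first step of carotenoid synthesis, lay above 0 with a median of 0.23, and violaxanthin de-epoxidase had 2 genes at 0.12 and 0.13.

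Chlorophyll synthesis genes were 30, with 22 above 0, a median of 0.08 and 0 called, and 16 above 0 with a median of 0.0084 without the pair of the corrupt file. GUN4 Glyma12g05650, an activator of magnesium chelatase, had the smallest p at 0.34 ± 0.15 (adjusted p = 0.441, limma), and 0.22 ± 0.14 without that pair. The 4 genes of GLK1, a transcription factor of antenna and chlorophyll genes, lay above 0 with a median of 0.26, and the 4 of chlorophyll synthase lay below it with a median of -0.08. Of 23 clock genes 15 lay above 0, with a median of 0.13 and 0 called, and 14 with a median of 0.07 without that pair. The list pools loci of opposite sign: all 4 LHY and 3 RVE8 genes lay above 0 and all 4 TOC1 genes below, while PRR5, PRR7 and GI had both signs. At an unadjusted p under 0.05 in limma, 11 clock genes were higher and 2 lower in weedy plots, beside 1652 and 1641 of the 30456 genes tested. LHY Glyma19g45030, a clock factor of the morning, had the smallest p, with 0.70 ± 0.13 and a higher level in weedy plots in 6 of 6 pairs (adjusted p = 0.101). The sources used here do not give the hour of sampling.

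Markers of leaf tissues also differed between the plots of a pair. The 8 mesophyll genes, of Rubisco small subunit and Rubisco activase, had 6 differences above 0 and a list median of 0.17. Their pair medians were 0.11, 0.89, -0.21, -0.88, 0.29 and 0.71 in the order of pairs used above. Without the pair of the corrupt file 5 lay above 0 and 3 below, with a median of 0.08. The summed level of the 8 genes ran from 13.02 to 14.78 in control and from 12.61 to 14.87 in weedy plots (log2). RCA Glyma18g04080, Rubisco activase, differed by 0.62 ± 0.29 (limma adjusted p = 0.484), and by 0.44 ± 0.32 without that pair. Of 12 vascular wall genes 2 lay above 0 with a list median of -0.34, or -0.20 without the pair of the corrupt file. Their pair medians were -0.14, -0.39, -0.16, 0.33, -0.41 and -1.04 in the same order. Their summed level was 6.55 to 7.70 in control and 6.29 to 7.25 in weedy plots. IRX1 Glyma08g12400, a cellulose synthase of the secondary wall, differed by -0.85 ± 0.33 (limma adjusted p = 0.389), and by -0.61 ± 0.26 without the pair of the corrupt file. The 1 meristem gene, STM Glyma17g01370, stood at 0.64 to 1.58 in control and 0.41 to 1.13 in weedy plots. It differed by -0.37 ± 0.17 (limma adjusted p = 0.481), and by -0.30 without the pair of the corrupt file. None of these lists had a called gene in limma, and their part in the ELIP1 values was not tested.

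The genes most like ELIP1 were sought over the whole table by the correlation with the mean of the 2 ELIP1 genes over 12 libraries, season means removed. Among the highest were T6G15.140 Glyma10g25490 (an uncharacterised protein family) at 0.98, ELM1 Glyma12g31170 at 0.97, F27H5.5 Glyma03g24900 (GroES-like) at 0.97, F26G16.2 Glyma09g10370 (NPH3 family) at 0.96 and MEC18.18 Glyma02g28830 (with the Aha1 domain of HSP90 activators) at 0.96. These 5 were lower in weedy plots in 6 of 6 pairs, which the choice by likeness favours, with differences from -0.68 to -0.13. MEC18.18 Glyma02g28830 had the widest, at -0.68 ± 0.11, with pair differences of -0.34, -0.63, -1.18, -0.93, -0.64 and -0.32.

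The 3 lowest correlations were those of T6L1.9 Glyma01g09420 at -0.95, AtRLP15 Glyma07g17350 at -0.94 and F26K24.21 Glyma20g00790 at -0.94. AtRLP15 Glyma07g17350, a receptor-like protein, stood at 1.48 ± 0.42 (SD) in control and 1.98 ± 0.59 in weedy plots. Of the antenna genes 11 of 38 had a correlation with ELIP1 above 0, with a median of -0.10 and a range from -0.50 to 0.36. The highest in the lists was that of APX1 Glyma12g07780 at 0.81.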

How the data were processed

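RNA-seq of 12 soybean leaf libraries was read from 1 deposited table. Per the file headers, the authors made log2 FPKM values with the Tuxedo programs and annotated them with Phytozome 9.0 gene models. TopHat 1.0, Cufflinks 1.0 and Cuffdiff 1.0 stand in the submitters' processing notes, and the genome build, the scaling step and the strand are not given in the sources used here. All 12 library columns hold the same sorted values, which hides a change shared by most genes. The deposited log2 ratio columns were recomputed with a largest difference of 0, and the p-value and q-value columns are the authors' Cuffdiff results. No counts are given, so depth is unknown.

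Columns were assigned by their names, with Drill read as 18 cm and Row as 76 cm, an inference. Of 30498 entries, 39 sharing 19 identifiers were left out, and genes had to reach log2 1 in 3 or more libraries, a filter that removed 3 and left 30456. Both ELIP1 genes passed. The models were those of limma 3.58.1 under R 4.3.3 (eBayes, trend and robust, two-sided, Benjamini-Hochberg, threshold 0.05), with season as a covariate over 12 libraries, as group means over the 8 libraries of 2010 and 2011, with row spacing added to the group means, or as an F test over seasons. The fits were tested on simulated data. The labels call the plots biological replicates. In the fit of the 8 libraries by group means alone, p-values measure the spread between plots of a group, which includes their difference in row spacing. With row spacing added, the shared part of that difference is taken out. With season as a covariate over 12 libraries, the error also holds changes of the weedy minus control difference between seasons. SE and p-values of that fit are therefore not a measure of plot spread alone.

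Lists were joined by the Arabidopsis locus, which 29874 entries have. The members and lists were chosen with earlier results of these data known. Named are ELIP1, its relatives, the gene of smallest p in each other list, the highest and lowest antenna gene, and the 6 most and 3 least like ELIP1, of which 1 is not reported here. Genes outside this rule are marked as named after their values were seen. No identifier matched the RefSeq gene table (0 matched). Alternatives covered the scale, the low-value filter, a block of plot pairs, season, left-out libraries and seasons, centring on the antenna, and the variance model.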

Additional observations from a re-analysis of the deposited data

Results flagged for a closer look

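The median difference of the 38 antenna genes, weedy minus control, pointed in opposite directions in 2 seasons. Its mean over the 2 pairs was -0.22 in 2010, with both pairs below 0, and 0.59 in 2011, with both pairs above 0, so that 2011 minus 2010 came to 0.812 on the log2 scale. Without the pair of 2011 that holds the corrupt read file, 2011 stood at 0.28 and the difference at 0.51. The mesophyll marker medians had the same signs, at -0.49 in 2010 and 0.44 in 2011. The vascular wall medians had the reverse signs, at 0.08 in 2010 and -0.73 in 2011. The difference of the antenna medians was not tested. Gene by gene, the limma contrast of the seasons called 0 of the 38, with a lowest adjusted p of 0.279. In the same contrast 4181 of 30456 genes had an unadjusted p under 0.05 and 0 were called. A value far from the others was sought among the 6 control libraries, the 6 weedy libraries and the 6 pair differences, for each ELIP1 gene and for the antenna median, and 0 of these 9 groups held one. The rule set the gap beside the lowest or highest value against the range of the 6 values. Each group mixes the seasons, whose differences widen that range, so the rule could easily miss a deviating library.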

How the results depend on the processing

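Weedy minus control kept its sign for both ELIP1 genes in the alternatives that change the scale or the libraries. The filter, season, block and variance settings cannot move these estimates in this balanced design. Leaving out 1 library at a time gave -0.71 to -0.52 for Glyma10g38910, -0.63 to -0.45 for Glyma20g28890 and 0.14 to 0.30 for the antenna median, and within seasons -1.19 to -1.08 and -1.04 to -0.86 in 2010 and -0.49 to -0.41 and -0.54 to 0 in 2011. Genes called numbered 0 to 24 over these fits, 24 without either library of 2008 (also without that season) and 6 without weedy replicate 1 of 2010, and antenna genes called stayed at 0. Spacing ran from -0.08 to -0.05 and from -0.015 to 0.23. It reversed for Glyma20g28890 without either weedy library of 2011, and to -0.023 without the pair of the corrupt read file, an alternative chosen after seeing the data, which also gave -0.54 for Glyma20g28890 in 2011. Centring on the antenna median gave 246 called genes, -0.91 and -0.72 in 2010, -0.98 and -0.80 in 2011, -0.12 for the spacing of Glyma10g38910, and, by its construction, -0.0036 for the antenna median. The correlation of ELIP1 with the antenna was -0.074 with season means removed. Seasons called 12948 genes in control and 6910 in weedy libraries alone, of them 20 and 21 antenna genes, with fewer samples in each fit. With the pair of plots as a replicate block the ELIP1 differences were -0.60 and -0.53 and 0 genes were called. Same-numbered plots deviated with correlations of -0.05 in 2010 and 0.05 in 2011, so they share only a number and a spacing. Without counts, precision at low levels is unknown.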
